A study of Mus musculus with 16 samples.

Results

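The 8 genes described here encode enzymes that build LacdiNAc or add sulfate to GlcNAc, GalNAc or galactose of glycan chains. They were taken by name, *B4galnt3*, *B4galnt4*, *Chst1*, *Chst2*, *Chst5*, *Chst7*, *Chst8* and *Chst9*, and all 8 were found among the 37583 genes of the count files. Of these, 27196 genes had at least 1 count. RNA was measured by polyA-selected sequencing in cortex and cerebellum of C57BL/6J mice, with 4 libraries in each of 4 groups. The wild-type groups are the frontal cortex and cerebellum of males, for which the study's methods give an age of 12 weeks. The A391T groups are the same regions of mice that the labels call Slc39a8 A391T (A393T) mutant (Slc39a8 is a metal ion transporter), and the labels used here give neither sex, age nor the number of mutant copies. Both regions come from the same mice, numbered 1 to 4 within a genotype, and all groups share the strain.

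LacdiNAc is GalNAc linked to GlcNAc, and it takes the place of the far more common LacNAc, in which galactose is linked to GlcNAc. *B4galnt3* and *B4galnt4* encode the transferases that add this GalNAc. *Chst8* and *Chst9* encode the sulfotransferases that place sulfate on carbon 4 of a terminal GalNAc, the modification best known from pituitary hormones and also carried in brain by SorLA and tenascin-R. *Chst1* encodes the sulfotransferase for carbon 6 of galactose in keratan sulfate, a chain of LacNAc units, and *Chst2*, *Chst5* and *Chst7* encode sulfotransferases for carbon 6 of GlcNAc, of which the *Chst7* product also acts on chondroitin.

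The libraries held from 20813432 to 30497206 counts on genes. Chi-square per degree of freedom between 2 libraries of a group lay between 2.93 and 69.0, above counting error in every pair. A391T cerebellum mouse 1 stood apart from the other 3 of its group, and wild-type cortex mouse 4 did so to a lesser extent. For wild-type mice 1 and 2 and A391T mice 3 and 4, in both regions, the count file and the column of the RPKM table with the same values carry names of opposite genotypes, which makes 8 of the 16 columns. Groups follow the count files here, and the values that change sign or call under the names of the table are given as well. The 5 marker genes of cerebellum neurons summed to between 10.4 and 25.7 TPM (a level scaled by gene length and library total) in cortex and between 3025 and 3386 TPM in cerebellum, and the 5 of cortex neurons to between 762 and 1020 TPM in cerebellum and between 2271 and 2851 TPM in cortex. The marker genes thus matched the labelled regions. *Slc39a8* was at 2.14 ± 0.579 TPM in wild-type and 2.46 ± 0.361 TPM in A391T cortex, and at 2.75 ± 0.302 and 2.58 ± 0.189 TPM in cerebellum (SD, n = 4). A point variant need not change the level of its RNA, so this does not check the genotype labels.

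Promoters are shown for the 4 sulfotransferase genes on which the regional results turn, *Chst1* and *Chst2*, lower in cerebellum, and *Chst5* and *Chst8*, higher there. Each runs from 250 bases before to 50 bases after the start of the gene in the RefSeq promoter table (build GRCm38.p6), which held 7 of the 8 genes and no entry for *Chst9*. Each also matched NCBIM37 (mm9), the build of the files, exactly and at 1 place of its chromosome, and the positions are those of NCBIM37. Capitals mark the GC box, GGGCGG or its reverse complement CCGCCC on the strand shown, and all other bases are in lower case.
Chst1, chr2:92441024-92441323, + strand: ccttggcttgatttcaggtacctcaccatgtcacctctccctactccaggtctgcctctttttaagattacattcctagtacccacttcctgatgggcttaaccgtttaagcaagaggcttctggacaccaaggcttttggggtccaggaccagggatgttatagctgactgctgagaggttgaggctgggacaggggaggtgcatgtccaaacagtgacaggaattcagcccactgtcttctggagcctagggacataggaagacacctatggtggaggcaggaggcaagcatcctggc
Chst2, chr9:95307640-95307939, - strand: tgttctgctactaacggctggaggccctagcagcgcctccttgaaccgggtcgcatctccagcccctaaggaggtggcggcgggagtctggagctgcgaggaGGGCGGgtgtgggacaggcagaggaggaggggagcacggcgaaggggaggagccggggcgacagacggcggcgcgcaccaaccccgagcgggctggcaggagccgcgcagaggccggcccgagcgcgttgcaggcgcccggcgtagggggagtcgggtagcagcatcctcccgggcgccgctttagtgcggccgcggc
Chst5, chr8:114434050-114434349, - strand: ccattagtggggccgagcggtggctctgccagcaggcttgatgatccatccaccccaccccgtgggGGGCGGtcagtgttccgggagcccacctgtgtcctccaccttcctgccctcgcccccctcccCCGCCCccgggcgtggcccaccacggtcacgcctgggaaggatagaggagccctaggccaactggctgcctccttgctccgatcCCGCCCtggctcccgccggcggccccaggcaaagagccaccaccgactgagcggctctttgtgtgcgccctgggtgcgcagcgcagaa
Chst8, chr7:35597681-35597980, - strand: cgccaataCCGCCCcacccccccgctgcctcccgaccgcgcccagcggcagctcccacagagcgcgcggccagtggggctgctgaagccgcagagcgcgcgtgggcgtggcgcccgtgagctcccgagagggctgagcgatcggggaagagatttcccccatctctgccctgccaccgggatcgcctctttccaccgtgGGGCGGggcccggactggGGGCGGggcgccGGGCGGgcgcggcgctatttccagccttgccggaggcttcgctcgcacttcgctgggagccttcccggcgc
The *Chst1* stretch held no GC box and 1 CG dinucleotide, at 52.7% G and C. *Chst2* held 1 GC box and 34 CG dinucleotides at 73.0% G and C, *Chst5* held 3 and 21 at 70.7%, and *Chst8* held 4 and 38 at 75%. Of 32851 promoters of this length in the table, 35.7% held a GC box on either strand, and the median promoter had 7 CG dinucleotides and 52.7% G and C. The letters TATAAA, in 13.6% of promoters, were in none of these 4. The letters CCAAT, in 37.4%, were in *Chst8* once. For *Chst1* the table places the start 1410 bases downstream of that in the GENCODE annotation used here, so the stretch lies inside the annotated gene, while for *Chst2*, *Chst5* and *Chst8* the starts were the same base.

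In NCBIM37 the genes lie apart from each other. *Chst1* is at chr2:92439864-92455407 on the + strand, *Chst2* at chr9:95301348-95307689 on the - strand and *Chst5* at chr8:114413035-114434099 on the - strand. *Chst7* is on the X chromosome at chrX:19636686-19674647, + strand, and *Chst9* at chr18:15610433-15918666, - strand. *Chst8*, at chr7:35459487-35597730 on the - strand, shares its chromosome with *B4galnt4*, at chr7:148247173-148258018 on the + strand, and *B4galnt3* is at chr6:120153091-120244577 on the - strand. Reads were counted without regard to strand, and no annotated gene overlapped any of the 8 on either strand. Of the distinct stretches of 50 bases, the read length, in their coding transcripts, 11 of 2624 for *Chst1* and 11 of 6187 for *Chst2* occurred in transcripts of another gene, and 0 for the other 6 genes.

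*Chst1* and *Chst2* were the most abundant of the 8 in cortex, and the order of levels in cerebellum was different. In wild-type cortex *Chst1* was at 502 ± 13.8 TPM, above 99.1% of genes with a count, *Chst2* at 142 ± 7.19 TPM and *B4galnt4* at 108 ± 11.1 TPM. *Chst8* followed at 11.9 ± 1.5 TPM, *Chst7* at 4.98 ± 0.730 TPM, *Chst5* at 2.44 ± 0.281 TPM, *B4galnt3* at 0.750 ± 0.204 TPM and *Chst9* at 0.458 ± 0.121 TPM (SD, n = 4). The libraries of neighbours in this order did not overlap, except for *B4galnt3* and *Chst9*. In wild-type cerebellum *B4galnt4* was at 84.1 ± 9.49 TPM, *Chst2* at 79.6 ± 4.47 TPM and *Chst1* at 72.8 ± 5.52 TPM, 3 levels whose libraries overlapped from one to the next. *Chst8* came next at 27.7 ± 2.46 TPM, clear of *Chst7* at 6.12 ± 1.00 and *Chst5* at 5.99 ± 0.754 TPM, which overlapped each other. *Chst9*, at 3.31 ± 0.722 TPM, and *B4galnt3*, at 1.23 ± 0.218 TPM, stood apart from each other and from *Chst5*. The order of the means in the A391T mice was the same in both regions. There *Chst7* and *Chst5* no longer overlapped in cerebellum, at 7.38 ± 0.866 and 4.99 ± 0.597 TPM, while *Chst5* and *Chst9*, at 3.76 ± 0.800 TPM, did.

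**Figure D1:**
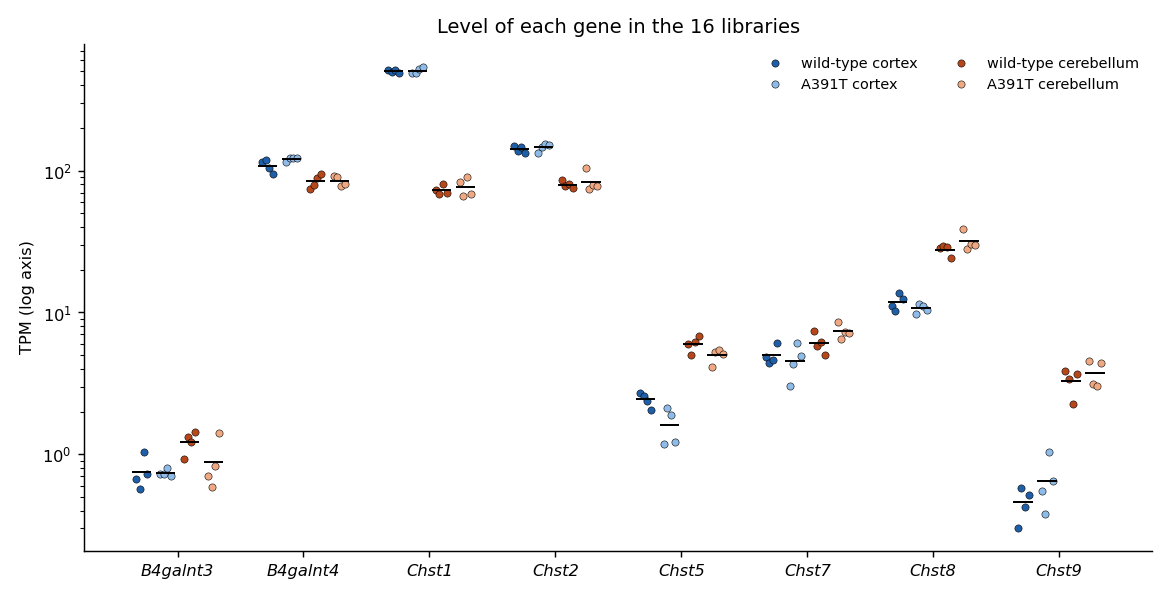
Level of each gene in TPM (log axis) in the 16 libraries; each point is 1 library of 1 mouse, the bar is the mean of 4, and colours give region and genotype. *Chst1* drops from between 485 and 538 TPM in cortex to between 66.4 and 89.6 TPM in cerebellum, while *Chst5*, *Chst8* and *Chst9* are higher in cerebellum in both genotypes.

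Cortex was compared with cerebellum in the wild-type mice, the comparison that the study made for glycosylation genes at large. Of the 8 genes, *Chst1* fell and *Chst5*, *Chst8* and *Chst9* rose in cerebellum past both criteria, an adjusted p under 0.05 and a change of at least 2-fold (edgeR quasi-likelihood test, adjusted over 16040 genes). Of all genes tested, 24.7% passed both, 10.5% as higher and 14.2% as lower in cerebellum. The median size of the log2 fold change was 1.03 over the 8 genes and 0.46 over all genes. By the adjusted p alone 7 of the 8 passed, against 67.8% of all genes, and TPM ranges of the regions did not overlap for 5 of the 8, against 64.6% of 16730 genes. The share of the 8 whose ranges lay apart was thus near that of all genes. In the A391T mice the same 4 genes passed in the same directions, where 24.7% of all 16005 genes tested passed, 9.8% as higher and 14.9% as lower. Again 7 passed by the adjusted p alone, against 62.8%, and the ranges of 7 lay apart, against 60.7%. The fold changes rest on counts scaled by TMM, an edgeR scaling of the library totals, and so are not ratios of the mean TPM.

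*Chst1*, for carbon 6 of galactose, had the largest fall of the 8. In wild-type mice 1 to 4 it was at 516, 492, 511 and 488 TPM in cortex and at 73.2, 68.4, 80.5 and 69.3 TPM in cerebellum. In A391T mice it was at 485, 491, 518 and 538 TPM in cortex and at 83.3, 66.4, 89.6 and 67.9 TPM in cerebellum. The regions were far apart in every mouse, with cortex from 6.35 to 7.20 times cerebellum in wild-type and from 5.78 to 7.92 times in A391T mice. The log2 fold change of cerebellum over cortex was -2.94 ± 0.06 (SE; edgeR quasi-likelihood test, adjusted p = 2.74e-11) in wild-type and -2.82 ± 0.12 (adjusted p = 2.66e-08) in A391T mice. It lay between -3.0 and -2.69 under every alternative run, in either genotype. Bulk RNA does not tell apart fewer cells of a type and less RNA per cell, here or for the genes below.

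*Chst2*, the most abundant of the 3 GlcNAc sulfotransferase genes, was also lower in cerebellum in every mouse, with cortex from 1.73 to 1.84 times cerebellum in wild-type and from 1.28 to 1.96 times in A391T mice. Wild-type mice 1 to 4 had 149, 138, 147 and 134 TPM in cortex and 85.8, 77.5, 79.9 and 75.4 TPM in cerebellum. A391T mice had 132, 146, 154 and 151 TPM in cortex and 104, 74.7, 78.8 and 77.7 TPM in cerebellum. The value of 104 TPM is from A391T cerebellum mouse 1, the library that stood apart, and even so the regions did not overlap in either genotype. The log2 fold change was -0.98 ± 0.06 (adjusted p = 1.20e-07) in wild-type and -0.89 ± 0.13 (adjusted p = 1.98e-04) in A391T mice, by the edgeR quasi-likelihood test. *Chst2* thus sat just outside the 2-fold limit, and *Chst8*, at 1.07, just inside it. It passed in wild-type mice with DESeq2 and with RLE size factors, at -1.0 each, under the names of the RPKM table, at -1.06, with only the mice that both sources name alike, at -1.02, and without cortex mouse 2, cortex mouse 4 or cerebellum mouse 1. In A391T mice it passed without cerebellum mouse 1, at -1.06.

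*Chst5*, a GlcNAc sulfotransferase gene at a far lower level than *Chst2*, went the other way. Wild-type mice 1 to 4 had 2.72, 2.58, 2.39 and 2.07 TPM in cortex, from 24 to 40 counts, and 6.02, 4.98, 6.18 and 6.79 TPM in cerebellum, from 65 to 83 counts. A391T mice had 1.19, 2.12, 1.90 and 1.22 TPM in cortex and 4.13, 5.27, 5.47 and 5.11 TPM in cerebellum. Cerebellum was the higher region in 8 of 8 mice, and no cerebellum library overlapped a cortex library. The log2 fold change of cerebellum over cortex was 1.13 ± 0.15 (edgeR, adjusted p = 5.24e-05) in wild-type and 1.53 ± 0.20 (adjusted p = 8.68e-05) in A391T mice. The ratio of *Chst2* to *Chst5* TPM within a library was 58.5 ± 5.40 in wild-type cortex and 13.5 ± 1.91 in wild-type cerebellum (SD, n = 4), and the ranges did not overlap.

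*Chst7*, the third GlcNAc sulfotransferase gene, passed the adjusted p in A391T mice only, and the difference between the genotypes did not pass its own test, given below. Wild-type mice 1 to 4 had 4.84, 4.41, 4.64 and 6.05 TPM in cortex and 7.43, 5.84, 6.17 and 5.02 TPM in cerebellum. Mouse 4 ran against the other 3, and the regions overlapped. A391T mice had 3.05, 4.31, 6.04 and 4.90 TPM in cortex and 8.54, 6.45, 7.31 and 7.20 TPM in cerebellum, with no overlap. On the log2 scale the change was 0.15 ± 0.16 (edgeR, adjusted p = 0.435) in wild-type and 0.59 ± 0.20 (adjusted p = 0.0268) in A391T mice. With only the mice that both sources name alike it was -0.10 in wild-type and 0.98 in A391T mice.

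*Chst8* and *Chst9*, for carbon 4 of GalNAc, were both higher in cerebellum in 8 of 8 mice. *Chst8* was at 11.2, 10.3, 13.7 and 12.5 TPM in wild-type cortex and at 28.5, 29.4, 28.7 and 24.0 TPM in wild-type cerebellum, mice 1 to 4. In A391T mice it was at 9.73, 11.4, 11.1 and 10.5 TPM in cortex and at 38.6, 27.8, 30.6 and 29.7 TPM in cerebellum. The lowest cerebellum library, at 24.0 TPM, was well above the highest cortex library, at 13.7 TPM. Cerebellum over cortex, the log2 fold change was 1.07 ± 0.10 (edgeR, adjusted p = 3.87e-06) in wild-type and 1.48 ± 0.14 (adjusted p = 6.87e-06) in A391T mice. The wild-type call was lost, just below the limit, without cortex mouse 2, where the value was 0.995, and it was 0.84 when only wild-type mice 3 and 4, which both sources name alike, were kept.

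*Chst9* was close to the floor in cortex. It had from 4 to 9 counts per library in wild-type and from 5 to 13 in A391T cortex, or 0.303, 0.582, 0.428 and 0.519 TPM and 0.556, 0.379, 1.03 and 0.644 TPM. In cerebellum it was at 3.89, 3.38, 2.27 and 3.69 TPM in wild-type and at 4.53, 3.11, 3.03 and 4.37 TPM in A391T mice, from 29 to 70 counts. The ranges were far apart in both genotypes. Between the regions the log2 fold change was 2.67 ± 0.28 (edgeR, adjusted p = 6.21e-06) in wild-type and 2.43 ± 0.30 (adjusted p = 5.17e-05) in A391T mice, and it lay between 2.17 and 2.97 under every alternative run. *Chst8* still exceeded *Chst9* in every library, by 8.80 ± 2.72 times in wild-type cerebellum (SD, n = 4).

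*B4galnt4* carried nearly all of the LacdiNAc synthase RNA and was somewhat lower in cerebellum. Wild-type mice 1 to 4 had 116, 118, 104 and 94.0 TPM in cortex and 73.8, 79.0, 88.8 and 94.9 TPM in cerebellum. In mouse 4 the regions were level, and so the wild-type ranges overlapped. A391T mice had 115, 124, 123 and 122 TPM in cortex and 91.5, 90.1, 78.0 and 80.4 TPM in cerebellum, without overlap. The log2 fold change between the regions was -0.51 ± 0.09 (edgeR, adjusted p = 4.00e-04) in wild-type and -0.61 ± 0.09 (adjusted p = 1.54e-04) in A391T mice, under 2-fold in both. With only wild-type mice 3 and 4, which both sources name alike, it was -0.27.

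*B4galnt3*, for the same linkage, had from 18 to 42 counts per library. It was at 0.666, 0.569, 1.04 and 0.724 TPM in wild-type cortex and at 0.931, 1.32, 1.22 and 1.44 TPM in wild-type cerebellum. In A391T mice it was at 0.732, 0.731, 0.799 and 0.701 TPM in cortex and at 0.705, 0.586, 0.824 and 1.41 TPM in cerebellum. The ranges overlapped in both genotypes. On the log2 scale the change was 0.57 ± 0.22 (edgeR, adjusted p = 0.0386) in wild-type and 0.13 ± 0.26 (adjusted p = 0.675) in A391T mice. *B4galnt4* exceeded *B4galnt3* 153 ± 47.3 times in wild-type cortex and 69.5 ± 8.43 times in wild-type cerebellum (SD, n = 4).

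**Figure D2:**
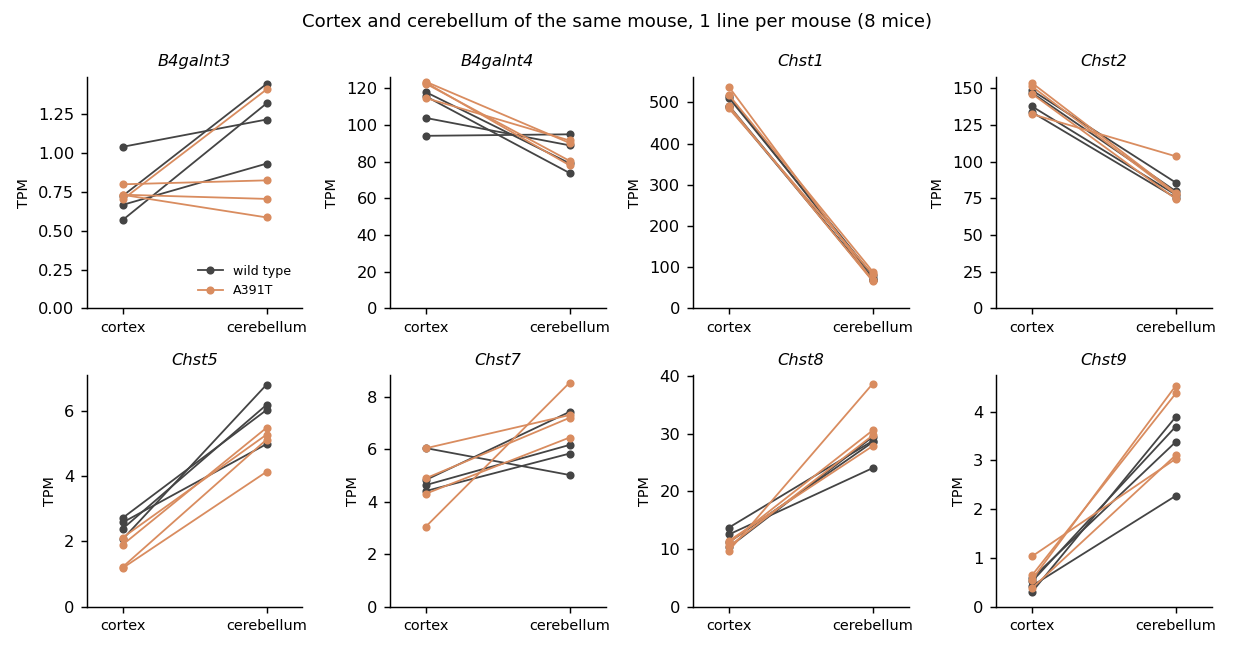
TPM of each gene in cortex and cerebellum, joined by 1 line per mouse, for 4 wild-type (dark) and 4 A391T (orange) mice; each panel has its own axis from 0. *Chst1* and *Chst2* slope down and *Chst5*, *Chst8* and *Chst9* slope up in 8 of 8 mice, *B4galnt4* slopes down in 7, *Chst7* up in 7 and *B4galnt3* up in 6.

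Summed over the 8 genes, the level was 772 ± 26.7 TPM in wild-type cortex and 281 ± 9.82 TPM in wild-type cerebellum, and the make-up of that sum differed. Genes for sulfation at carbon 6 made up 84.3 ± 0.985% of it in cortex and 58.6 ± 2.43% in cerebellum. The 3 GlcNAc genes among them went the other way as a share of the sum over all 8, from 19.3 ± 0.337% to 32.7 ± 2.01%. The lower carbon 6 share in cerebellum thus lay with *Chst1*. LacdiNAc synthase genes made up 14.0 ± 1.17% and 30.4 ± 3.13%, and genes for sulfation of GalNAc at carbon 4 made up 1.61 ± 0.208% and 11.0 ± 1.02% (SD, n = 4). Shares depend on the total, which was smaller in cerebellum, so the summed levels moved differently. The level of the 3 GlcNAc genes was 149 ± 6.98 TPM in wild-type cortex and 91.8 ± 5.42 TPM in wild-type cerebellum, with ranges apart. That of the LacdiNAc synthase genes was 109 ± 11.0 and 85.4 ± 9.67 TPM, with ranges that overlapped, and that of the GalNAc sulfation genes was 12.4 ± 1.49 and 31.0 ± 2.31 TPM, with ranges apart. The A391T shares were 83.2 ± 0.516% and 58.7 ± 2.59%, 15.3 ± 0.452% and 29.3 ± 2.81%, and 1.43 ± 0.0850% and 12.0 ± 0.775%, in the order carbon 6, LacdiNAc and carbon 4. For each of these 3 shares the regions did not overlap. The ratio of *Chst1* to *Chst8* TPM was 42.5 ± 5.21 in wild-type cortex and 2.64 ± 0.252 in wild-type cerebellum, and that of *Chst8* to *B4galnt4* was 0.112 ± 0.0238 and 0.334 ± 0.0601.

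**Figure D3:**
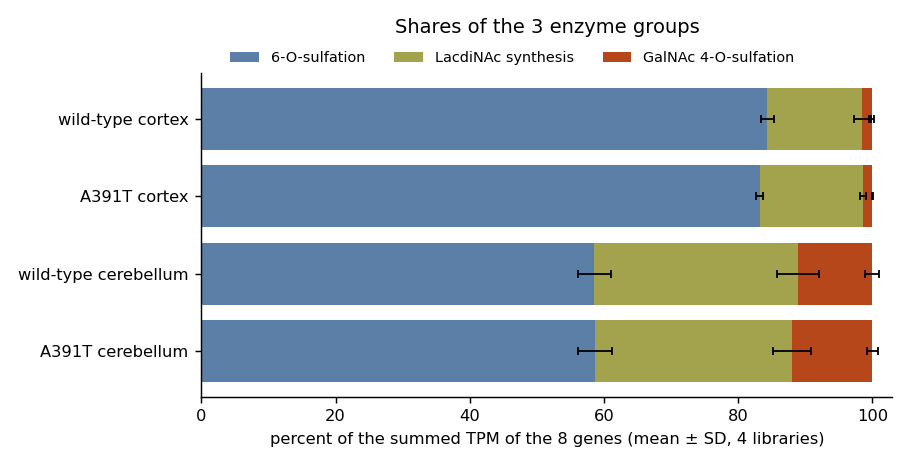
Share of the summed TPM of the 8 genes held by genes for carbon 6 sulfation, LacdiNAc synthesis and GalNAc carbon 4 sulfation, in percent, as stacked means of 4 libraries per group; each error bar is the SD of the segment it ends. The GalNAc sulfation segment grows from 1.61% in wild-type cortex to 11.0% in wild-type cerebellum, while its level goes from 12.4 to 31.0 TPM and the total from 772 to 281 TPM.

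Markers of neighbouring tissue differed between libraries. The 5 choroid plexus markers were detected in cortex and cerebellum and summed to between 8.64 and 49.7 TPM in cortex. In cerebellum they lay between 2385 and 8081 TPM in 6 libraries, but at 44.1 TPM in wild-type mouse 3 and 42.9 TPM in A391T mouse 4. In these 2 libraries *Chst8* was at 28.7 and 29.7 TPM, *Chst5* at 6.18 and 5.11 TPM, *Chst9* at 2.27 and 4.37 TPM and *Chst1* at 80.5 and 67.9 TPM. The part of choroid plexus in the regional results was not tested. The 4 striatum markers summed to between 7.22 and 10.3 TPM in cerebellum and to between 257 and 383 TPM in 7 cortex libraries, but to 98.1 TPM in A391T cortex mouse 3. That library had 518 TPM of *Chst1*, within the range of the others. The 4 meninges markers summed to between 37.3 and 49.9 TPM in cortex and between 73.8 and 93.9 TPM in cerebellum, and their part in the regional results was not tested. The 3 oligodendrocyte markers overlapped between regions, from 2802 to 3295 TPM in cortex and from 2584 to 4145 TPM in cerebellum. The pituitary markers *Prl* and *Gh* reached at most 0.366 TPM together.

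A391T was compared with wild type within each region. In cortex 7 of the 8 genes could be tested, *Chst9* having too few counts, and 0 of 7 passed, where 0.00632% of 15815 genes did (0.0126% by the adjusted p alone). In cerebellum 0 of 8 passed, where 0.0% of 15668 genes did. The exact test of edgeR and DESeq2 also called 0 of the 7 in cortex and 0 of the 8 in cerebellum. Of all genes they called 2 and 2 in cortex and 8 and 10 in cerebellum. At an unadjusted p under 0.05, 1 of the 7 in cortex and 0 of the 8 in cerebellum passed, against 748 and 1340 of all genes. The 1 was *Chst5* in cortex, with a log2 fold change of A391T over wild type of -0.63 ± 0.22 (edgeR, adjusted p = 0.987), where the highest A391T library, 2.12 TPM, overlapped the lowest wild-type library, 2.07 TPM. Under the names of the RPKM table this value was 0.21. TPM ranges of the genotypes overlapped for 8 of 8 genes in each region, while 3.19% of genes in cortex and 7.5% in cerebellum had ranges apart.

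In cortex the more abundant genes bound any difference between genotypes most closely. There the log2 fold change was -0.0031 ± 0.06 for *Chst1*, 0.02 ± 0.06 for *Chst2*, 0.15 ± 0.07 for *B4galnt4* and -0.18 ± 0.10 for *Chst8* (SE). In cerebellum the values were 0.14 ± 0.12 for *Chst1*, 0.14 ± 0.13 for *Chst2*, 0.08 ± 0.10 for *B4galnt4* and 0.26 ± 0.14 for *Chst8*. For the genes with fewer counts the SE was from 0.20 to 0.22 in cortex and from 0.13 to 0.27 in cerebellum, where *Chst5*, at 0.13, was bound about as closely as *Chst2* and *Chst8*. *Chst5* was at -0.21, *Chst7* at 0.33, *Chst9* at 0.25 and *B4galnt3* at -0.44 in cerebellum, and *Chst7* was at -0.14 and *B4galnt3* at -0.02 in cortex. Over all alternatives the cerebellum values ranged from -0.35 to -0.15 for *Chst5* and from 0.20 to 0.55 for *Chst7*. For *Chst9* they ranged from 0.09 to 0.49 and for *B4galnt3* from -0.91 to -0.28. Under the names of the RPKM table the sign turned for *Chst2* in cortex, at -0.059, and for *Chst1* in cerebellum, at -0.0077. None of these passed, and such a result does not show that the genotypes were alike.

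The difference between the genotypes' regional changes was tested as the interaction term over all 16 libraries. It passed for 0 of the 8, where 0.0% of 16589 genes passed, and 805 of all genes had an unadjusted p under 0.05. *Chst8* alone of the 8 had such a p, 0.031 (edgeR quasi-likelihood test, adjusted p = 0.769), with a term of 0.43 ± 0.18 on the log2 scale, the regional change being the larger in A391T mice. For *Chst7* the term was 0.46 ± 0.27 (adjusted p = 0.769), for *Chst5* 0.41 ± 0.25 (adjusted p = 0.769) and for *B4galnt3* -0.42 ± 0.35 (adjusted p = 0.773), by the same edgeR test. For *Chst1*, *Chst2*, *B4galnt4* and *Chst9* it lay between -0.23 and 0.13. The term changed sign under the names of the RPKM table for *Chst5*, to -0.37, and for *Chst9*, from -0.23 to 0.75, and that of *Chst9* was 0.53 with only the mice named alike. With only the mice that both sources name alike, the term was 0.78 for *Chst8* and 1.1 for *Chst7*, and without A391T cerebellum mouse 1 it was 0.27 for *Chst8*.

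**Figure D4:**
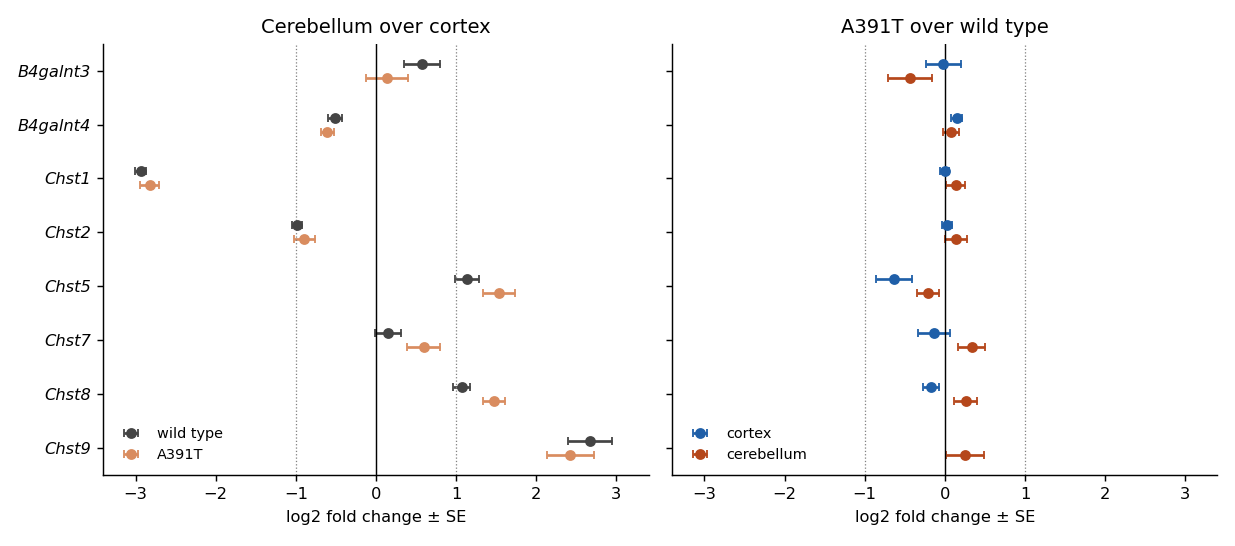
Log2 fold changes (points, edgeR) with SE (bars); left, cerebellum over cortex in wild-type and A391T mice, right, A391T over wild type in cortex and cerebellum, with dotted lines at 2-fold. On the left *Chst1* lies at -2.94 and -2.82 and *Chst9* at 2.67 and 2.43, while on the right every point lies within 2-fold, and *Chst9* has no cortex point because it was not tested there.

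Genes that supply, receive or remove these sugars were followed as lists, whose counts stand against the 24.7% of all genes that passed both criteria in either genotype. Of 9 genes for the sulfate donor PAPS and its sulfate, 2 rose and 1 fell past both criteria in wild-type cerebellum, a share near that of all genes, with a median log2 fold change of 0.20 against 0.02. *Slc26a11* rose by 1.36 ± 0.08 (edgeR, adjusted p = 5.75e-08), from 4.85 ± 0.0909 to 13.8 ± 0.276 TPM, and *Slc26a1* rose by 1.1 ± 0.17. Both encode anion transporters that carry sulfate. *Papss2*, one of the 2 PAPS synthase genes, had a log2 fold change of -1.15 ± 0.09 (adjusted p = 4.49e-07), from 15.1 ± 0.683 to 7.55 ± 0.616 TPM. *Papss1*, the other, had 125 ± 8.83 TPM in cortex against 131 ± 9.13 TPM in cerebellum and did not pass (adjusted p = 0.429). *Slc35b2*, which carries PAPS into the Golgi, passed the adjusted p alone at 0.61 ± 0.09, and *Slc35b3*, of the same role, was at -0.20 ± 0.11 (adjusted p = 0.119). In A391T mice only *Slc26a11* of the 9 passed both, at 1.12 ± 0.11.

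Of 6 genes for the LacNAc backbone, *B4galt2*, a galactosyltransferase gene, fell past both criteria, by 1.60 on the log2 scale, from 87.9 ± 10.0 to 32.1 ± 0.896 TPM. It also passed in A391T mice, at -1.66 ± 0.07. *B4galt4*, a galactosyltransferase that prefers sulfated GlcNAc, had 24.1 ± 1.58 TPM in cortex against 29.8 ± 1.97 TPM in cerebellum, and *B3gnt7*, which extends keratan sulfate, was at 1.88 ± 0.154 and 1.52 ± 0.522 TPM. Neither passed in wild-type mice (adjusted p = 0.118 and 0.12, edgeR), and *B3gnt7* passed the adjusted p alone in A391T mice, at -0.90 ± 0.28 (adjusted p = 0.019). *B3gnt2*, which extends LacNAc chains, passed it alone in wild-type mice, at -0.64 ± 0.25 (adjusted p = 0.0376). Of 10 carriers of keratan sulfate 9 were tested, *Kera* being at 0 counts in every library, and only *Sv2b*, a synaptic vesicle protein gene, passed both, at -1.34 ± 0.06 in wild-type and -1.44 ± 0.06 in A391T mice. *Sv2a* had 518 ± 35.1 TPM in cortex against 606 ± 26.3 TPM in cerebellum (adjusted p = 0.31). *Ptprz1*, a receptor phosphatase gene, passed the adjusted p alone, from 94.2 ± 15.6 to 192 ± 9.45 TPM (0.88 ± 0.10). *Lum*, *Omd*, *Prelp* and *Ogn*, genes of small proteoglycans of connective tissue, also passed it alone as higher in wild-type cerebellum, at 0.70, 0.71, 0.52 and 0.42, and *Lum* and *Omd* did so in A391T mice, at 0.87 and 0.79. The sum of the 4 meninges markers was higher in cerebellum too, as given above, but the markers did not move as one. By the adjusted p alone 3 of them passed as higher in wild-type and 2 in A391T mice. The lowest was at -0.11 in wild-type mice. The part of meninges in *Lum*, *Omd*, *Prelp* and *Ogn* was not tested. *Acan*, the gene of the proteoglycan aggrecan, was at 1.97 ± 0.552 and 1.51 ± 0.518 TPM and did not pass. The median over the 9 was 0.42.

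Of 5 carriers and readers of sulfated LacdiNAc 4 were tested, and 0 passed both criteria in either genotype. *Sorl1*, which encodes SorLA, passed the adjusted p alone, from 158 ± 30.9 TPM in wild-type cortex to 322 ± 40.6 TPM in wild-type cerebellum, at 0.88 ± 0.13 (edgeR, adjusted p = 8.66e-05). In A391T mice it was at 0.81 ± 0.08. *Tnr*, which encodes tenascin-R, was at 38.2 ± 21.8 and 30.8 ± 10.5 TPM in wild-type mice and did not pass (adjusted p = 0.29). In A391T mice it passed the adjusted p alone, from 37.5 ± 6.17 to 20.8 ± 9.31 TPM, at -0.98 ± 0.29 (edgeR, adjusted p = 0.0145), with ranges that overlapped. *Mrc1*, the gene of the macrophage mannose receptor, which binds sulfated GalNAc, was at -0.31 ± 0.19 (edgeR, adjusted p = 0.159) in wild-type and passed the adjusted p alone in A391T mice, at -0.51 ± 0.13 (adjusted p = 0.00718). *Cga*, the shared subunit gene of the pituitary hormones, was at 0 counts in every library.

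Of 13 other carbohydrate sulfotransferase genes 9 were tested and only *Ust*, for carbon 2 of uronic acid, passed both, rising from 16.8 ± 1.34 to 97.1 ± 5.74 TPM at 2.38 ± 0.07 in wild-type and by 2.30 ± 0.17 in A391T mice. *Chst4*, the GlcNAc sulfotransferase gene of lymph node vessels, had at most 3 counts in any library. Of 4 other genes for GalNAc transfer 3 were tested, and *Csgalnact1*, which starts chondroitin chains, fell by 1.63 on the log2 scale, from 15.9 ± 1.02 to 5.71 ± 0.721 TPM. Of the lysosomal genes that remove these sulfates, *Galns*, for carbon 6 of galactose, was at 8.85 ± 0.763 and 11.9 ± 1.87 TPM and did not pass. *Arsb*, for carbon 4 of GalNAc, passed the adjusted p alone at -0.63 ± 0.15. In the genotype and interaction comparisons 0 genes of these lists passed.

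The genes whose profile over the 16 libraries was most like that of each of the 8 were found by the root mean square difference of centred log2 CPM, over 16589 genes. *Mtch1* was nearest to *Chst2*, at 0.0698, *Chid1* to *B4galnt4*, at 0.0897, *Acsl5* to *Chst1*, at 0.11, and *Kitl* to *Chst8*, at 0.12. The profiles of the genes with few counts had no neighbour as near, *Rmi1* to *Chst7* at 0.17, *Akna* to *B4galnt3* at 0.217, *Fhod1* to *Chst5* at 0.241 and *Rdh5* to *Chst9* at 0.264. The 16 libraries share 2 regions and 8 mice, so these are descriptions without a test.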

How the data were processed

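RNA of cortex and cerebellum was measured in 4 wild-type and 4 A391T mice, 1 library per region and mouse. The authors selected polyA RNA, prepared directional libraries and aligned reads of 50 bases to mm9 (STAR). Per-gene counts on the Ensembl annotation came from HTSeq, run as not stranded, and the counts were deposited raw. The authors also deposited an RPKM table with gene lengths. Its 16 columns matched the count files in proportion (relative tolerance 1e-09), 8 of them under the name of another library. Reads on no gene, from 10.2% to 13.2% of entries, stayed out.

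TPM was computed from counts on genes and those lengths. For *Chst8* that length was 3870 bases against 2787 exon bases in the GENCODE annotation, and for *B4galnt3* 4601 against 3798. Levels, shares and ratios that set these genes against others depend on the length used. Genes kept by filterByExpr were scaled by TMM and put to the quasi-likelihood test of edgeR 4.0.16 (R 4.3.3, limma 3.58.1). The SE of a log2 fold change was worked out from that test, as its absolute value divided by the square root of the F statistic. P-values were adjusted over the whole table (Benjamini-Hochberg). Passing both criteria meant an adjusted p under 0.05 with a change of 2-fold or more, a log2 value of 1. As alternatives, DESeq2 1.42.0, the exact test of edgeR, RLE factors, library totals, other filters, all libraries in 1 model, the mouse as a block, the names of the RPKM table, only the mice named alike in both sources, and leaving out each library were run. The procedure was tested on simulated counts. Python 3.11.15 with pandas 2.3.3 was used for levels. With 4 mice per group, the p-values measure the spread between these mice.

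The regions of a genotype share mice by their number in the labels and by the methods, so mouse numbers pair them. Deviations from the group means correlated between the regions of 1 mouse from -0.20 to 0.27 in wild-type and from -0.19 to 0.13 in A391T mice. Between different mice of a genotype the correlations ran from -0.30 to 0.28 and from -0.19 to 0.18. These values thus do not tell the regions of 1 mouse from those of different mice, and the pairing rests on the labels and methods. The genotypes share no mice.

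The 8 genes and the other lists were chosen with earlier results of these data known. Named were the 8 genes, genes of the lists past both criteria in wild-type mice, genes chosen by role, *Slc39a8* and the nearest profile of each gene; a few are not reported here. *B3gnt2*, *Kera*, *Cga*, *Lum*, *Mrc1*, *Ogn*, *Omd*, *Prelp*, *Prl* and *Gh* were named after their values were seen. Sequences are from RefSeq and positions from GENCODE vM1.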

Additional observations from a re-analysis of the deposited data

Results flagged for a closer look

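Within each group of 4 libraries, the highest and the lowest level of each of the 8 genes were set against the rest of the group by Dixon's criterion at 95%, over 32 groups; chance alone flags about 1 group in 20. In A391T cortex, *B4galnt4* in mouse 1 was the lowest at 115 TPM, with the other 3 mice between 122 and 124 TPM. In A391T cerebellum, *Chst2* in mouse 1 was the highest at 104 TPM, with the others between 74.7 and 78.8 TPM. This is the library that differed most from its group over all genes, and without it the log2 fold change of *Chst2* between the regions was -1.06 in place of -0.89 and that between the genotypes in cerebellum -0.03 in place of 0.14.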

How the results depend on the processing

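The 4 calls in each region comparison were counted again under 20 alternatives. With the adjusted p alone 7 genes passed in wild-type and 7 in A391T mice; under the others 4 or 5 passed. Leaving out 1 library gave from 4 to 5 in each comparison and 0 in the genotype and interaction comparisons. With the mouse as a replicate block 4 passed in wild-type and 4 in A391T mice, 0 for the interaction, and the pairing changed no call.

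Values that changed sign were small or rested on few counts. With only the mice named alike in both sources, the regional change was -0.10 for *Chst7* in wild-type and -0.23 for *B4galnt3* in A391T mice, that of *Chst2* between genotypes in cortex -0.037, and the interaction of *Chst9* 0.53. Under the names of the RPKM table the genotype values were -0.059 for *Chst2* and 0.21 for *Chst5* in cortex and -0.0077 for *Chst1* in cerebellum, and the interaction was -0.37 for *Chst5* and 0.75 for *Chst9* (-0.34 and 0.72 with the mouse as a block). In cortex, *Chst1* between genotypes was 0.00030 by library totals and 0.0013 in 1 model of all libraries.

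Leaving out 1 library in turn, the change between regions of *B4galnt3* in A391T mice lay between -0.15 (without cerebellum mouse 4) and 0.30. Between genotypes in cortex the ranges were -0.15 to 0.16 for *B4galnt3*, -0.035 to 0.017 for *Chst1*, -0.0012 to 0.060 for *Chst2* and -0.28 to 0.0044 for *Chst7*. In cerebellum they were -0.0065 to 0.13 for *B4galnt4* and -0.035 to 0.20 for *Chst2*, with both lower ends without A391T mouse 1. The interaction ranged from -0.061 to 0.17 for *Chst2* and from -0.41 to 0.055 for *Chst9*. Without a change of sign, it ranged over all alternatives from 0.31 to 1.1 for *Chst7*, from 0.27 to 0.78 for *Chst8* and from -0.72 to -0.14 for *B4galnt3*. For the interaction, leaving out libraries, keeping the mice named alike and joining the block with the names of the RPKM table were chosen after seeing the data. None of the values in these 2 paragraphs came from a gene that passed in that comparison, and the cause of the changes was not tested. Depth limits *Chst9* in cortex, at 4 to 13 counts per library, and *B4galnt3*, at 18 to 42.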
